A study of Rattus norvegicus with 16 samples.

Results

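The genes described here encode proteins that let calcium out of the sarcoplasmic reticulum of muscle and take it back: Cacna1s, Cacnb1, Casq2, Dhrs7c, Atp2a1, Atp2a2 and Pln. Every probe set that the platform annotation gives to just 1 of these symbols was taken, which made 11 of the array's 8799 probe sets, for 7 of its 4737 genes named in this way. All 11 were tested. Each probe set is kept apart, because those of a single gene did not always move together. The arrays were 1-colour short oligonucleotide arrays of rat muscle RNA. EOM, extraocular muscle, was on 4 arrays with no collection time in the labels. A skeletal muscle labelled TA, an abbreviation they do not spell out, was on 8 arrays with a collection time of 6 hours (TA_6h) and on 4 with 1 hour (TA_1h), without the event from which the hours count. The labels name no strain, age, sex or treatment for any group.

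In a muscle fibre the action potential moves a voltage sensor in the tubular membrane, the calcium channel whose pore subunit is Cacna1s and whose cytoplasmic beta subunit is Cacnb1, and the sensor opens the ryanodine receptor of the sarcoplasmic reticulum. Calcium leaves the reticulum, where calsequestrin binds it in bulk, and is pumped back by the SERCA pumps, of which Atp2a1 is the form of fast fibres and Atp2a2 the form of slow fibres and heart. Phospholamban, the product of Pln, restrains Atp2a2, and Casq2 is the cardiac calsequestrin, also made by slow fibres. Dhrs7c is a short-chain dehydrogenase of the sarcoplasmic reticulum.

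Compared with both TA groups, EOM had lower signal for Dhrs7c, for the voltage sensor subunit Cacnb1 and for 1 of the 2 probe sets of Cacna1s, while the other was not called over all arrays. Phospholamban had higher signal, Casq2 was called higher against TA_6h only with 5 TA arrays described below included, Atp2a1 had no called difference, and the Atp2a2 probe sets disagreed. Differences are log2 differences with limma standard errors, on intensities raised to a floor of 56.5, and a probe set is said to be called when its limma adjusted p over all 7640 probe sets tested lay under 0.05. Arrays that share a number were averaged and counted as 1 sample, giving 4 EOM, 4 TA_6h and 2 TA_1h samples. Between EOM and TA_6h, 4 of the 11 probe sets were called higher in EOM, against 21.9% of all tested, and 3 were called lower, against 25.3%. Between EOM and TA_1h, 3 were called higher, against 17.7% of all, and 3 lower, against 19.5%. With 11 probe sets these counts are not read as a property of the genes as a set, and the description rests on the single genes. The median difference of the 11 from TA_6h was -0.05, beside -0.11 over all tested. From TA_1h it was -0.56, beside -0.09. The EOM samples are shared by both comparisons.

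Before the values, 3 features of the arrays bear on all of them. Of the EOM intensities 24.3% lay below 0 and no TA intensity did, so that in each difference between EOM and TA the muscle and the way its arrays were summarised cannot be told apart. The beta-actin control, whose ratio of middle to 3′ signal is read as a sign of RNA or labelling quality, was at 0.146 to 0.390 on 5 TA arrays, namely arrays 3a, 3b, 4a, 4b of TA_6h and array 2b of TA_1h. The other TA arrays, 7 in all, had ratios of 0.815 to 1.28, and EOM arrays had 0.891 to 0.978. The same ratio of the Gapdh control went otherwise, with 0.959 to 1.52 on the 5 arrays. It was uneven on the 7 remaining TA arrays, at 0.161 to 1.11, and EOM arrays had 0.882 to 0.928. The 5 are thus low in the beta-actin control and not in this one. Of the skeletal muscle markers, the fast troponin Tnnt3 and the myosins Myh1, Myh2 and Myh4 were above the floor on all 16 arrays, and the eye-muscle myosin Myh13 was 5.18 higher on the log2 scale in EOM than in TA_6h. The creatine kinase Ckm was above the floor on only 5 of 8 TA_6h arrays and 3 of 4 TA_1h arrays. The actin Acta1 was above it on all 8 TA_6h arrays and on 3 of 4 TA_1h arrays. Against TA_6h, Ckm was called higher in EOM (log2 4.39), and Des (log2 -0.82), Myh2 (log2 -0.65) and Myh4 (log2 -0.65) were called lower. Acta1 was called higher in EOM against TA_1h only (log2 3.80). In whole muscle, fewer cells of a type and less RNA per cell cannot be told apart.

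Promoter sequence was at hand for 5 of the 7 genes in RefSeq (build GRCr8), as windows of 300 bases that run from 250 before to 50 after the annotated start. The 4 shown are those of Cacna1s (lower in EOM), Casq2 and Pln (called higher against TA_6h) and Atp2a1 (no called difference), written 5′ to 3′ on the gene's strand. Capitals mark the E-box CANNTG, the core bound by the myogenic factors, and the MEF2 motif, which is bound by MEF2 factors.
Cacna1s, chr13:50045418-50045717, plus strand: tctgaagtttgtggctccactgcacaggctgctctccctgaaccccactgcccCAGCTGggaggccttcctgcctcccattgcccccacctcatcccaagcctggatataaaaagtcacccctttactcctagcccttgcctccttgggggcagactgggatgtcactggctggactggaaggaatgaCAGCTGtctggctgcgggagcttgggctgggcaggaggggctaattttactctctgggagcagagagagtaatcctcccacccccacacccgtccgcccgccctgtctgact
Casq2, chr2:192214306-192214605, plus strand: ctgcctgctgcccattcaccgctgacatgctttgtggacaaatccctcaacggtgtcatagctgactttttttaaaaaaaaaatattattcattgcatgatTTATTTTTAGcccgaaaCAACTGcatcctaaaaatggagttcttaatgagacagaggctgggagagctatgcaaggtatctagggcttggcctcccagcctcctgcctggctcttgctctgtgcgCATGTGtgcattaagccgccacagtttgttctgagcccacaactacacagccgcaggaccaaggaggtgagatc
Atp2a1, chr1:190475361-190475660, minus strand: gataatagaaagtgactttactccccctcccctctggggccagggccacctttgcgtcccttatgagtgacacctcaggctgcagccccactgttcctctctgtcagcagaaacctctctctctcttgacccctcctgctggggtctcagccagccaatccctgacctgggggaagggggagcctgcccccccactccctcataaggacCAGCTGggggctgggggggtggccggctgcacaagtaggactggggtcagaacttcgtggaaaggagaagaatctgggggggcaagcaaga
Pln, chr20:33172244-33172543, plus strand: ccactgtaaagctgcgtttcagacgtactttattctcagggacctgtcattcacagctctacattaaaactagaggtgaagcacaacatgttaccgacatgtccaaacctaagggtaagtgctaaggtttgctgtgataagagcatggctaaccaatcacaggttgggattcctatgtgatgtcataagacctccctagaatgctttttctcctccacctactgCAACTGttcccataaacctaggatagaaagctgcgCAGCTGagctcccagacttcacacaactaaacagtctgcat

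Both strands were searched. The Cacna1s window held CAGCTG, an E-box that is also counted under CANNTG, at -197 and -62 from the start, and those of Atp2a1 and Pln held it at -41 and 10. CAGCTG was in 15.1% of the 33469 rat promoter windows of the table, and CANNTG was in 72.1% of them. The Casq2 window held 2 other E-boxes, at -132 and -24, and the MEF2 motif at -149, which 3.29% of all windows held. The CArG box, searched in the same way and present in 1.64% of windows, was in none of these 4. A match describes the letters of the window only. It was found in genes with lower, higher and not called signal in EOM alike.

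Cacna1s, the pore subunit and voltage sensor, had 2 probe sets. The first, L04684_at, read 1131, 888, 1391 and 851 on the EOM arrays. On the 8 TA_6h arrays its lowest, median and highest intensities were 4889, 6118 and 7450. On the TA_1h arrays it read 5123, 6773, 6286 and 4128. Every EOM array lay below every TA array. EOM had a mean of 1065 ± 250 (SD, n = 4), TA_6h of 6097 ± 728 (SD, n = 4) and TA_1h of 5578 ± 524 (SD, n = 2). EOM was 5.79-fold lower than TA_6h (log2 -2.53 ± 0.19, limma adjusted p = 6.72e-06) and 5.25-fold lower than TA_1h (log2 -2.39 ± 0.24, limma adjusted p = 5.58e-05).

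The second Cacna1s probe set, U31816_s_at, split the TA arrays instead. The s in its name marks a set whose probes can match more than 1 transcript. It read 878, 1214, 842 and 588 in EOM. It read 4107 and 5115 on TA_6h arrays 1 and 1b and 4533 and 3924 on arrays 2 and 2b, all far above EOM. On TA_6h arrays 3a, 3b, 4a and 4b it read 50.8, 57.9, 29.1 and 44.2, at or near the floor. On TA_1h arrays it read 4719, 5270 and 3378, and then 65.6 on array 2b. TA_1h arrays 2a and 2b, which share a number, thus differed 51.5-fold, while L04684_at differed 1.52-fold between them. Over all arrays no difference was called from TA_6h (log2 0.77 ± 1.53, limma adjusted p = 0.699) or from TA_1h (log2 -0.85 ± 1.87, limma adjusted p = 0.758).

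The 5 TA arrays with low U31816_s_at were exactly the 5 with the low beta-actin ratio. Its intensity was 29.1 to 65.6 on these and 3378 to 5270 on the 7 remaining TA arrays, a mean log2 difference of -6.23. No other of the 7640 tested probe sets was that much lower on these 5 arrays. L04684_at showed no such split, with 4128 to 7450 on the 5 arrays and 4889 to 6773 on the other 7. Without the 5 arrays, an alternative chosen after the data were seen, both probe sets of Cacna1s were called lower against TA_6h. The difference was -2.37 ± 0.30 for U31816_s_at (5.16-fold lower in EOM, limma adjusted p = 0.000789) and -2.39 ± 0.22 for L04684_at. From TA_1h the same fit gave -2.27 ± 0.30 for U31816_s_at (limma adjusted p = 0.000870). The Gapdh ratio was not low on these arrays, and the part of RNA quality in the split was not tested.

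**Figure D1:**
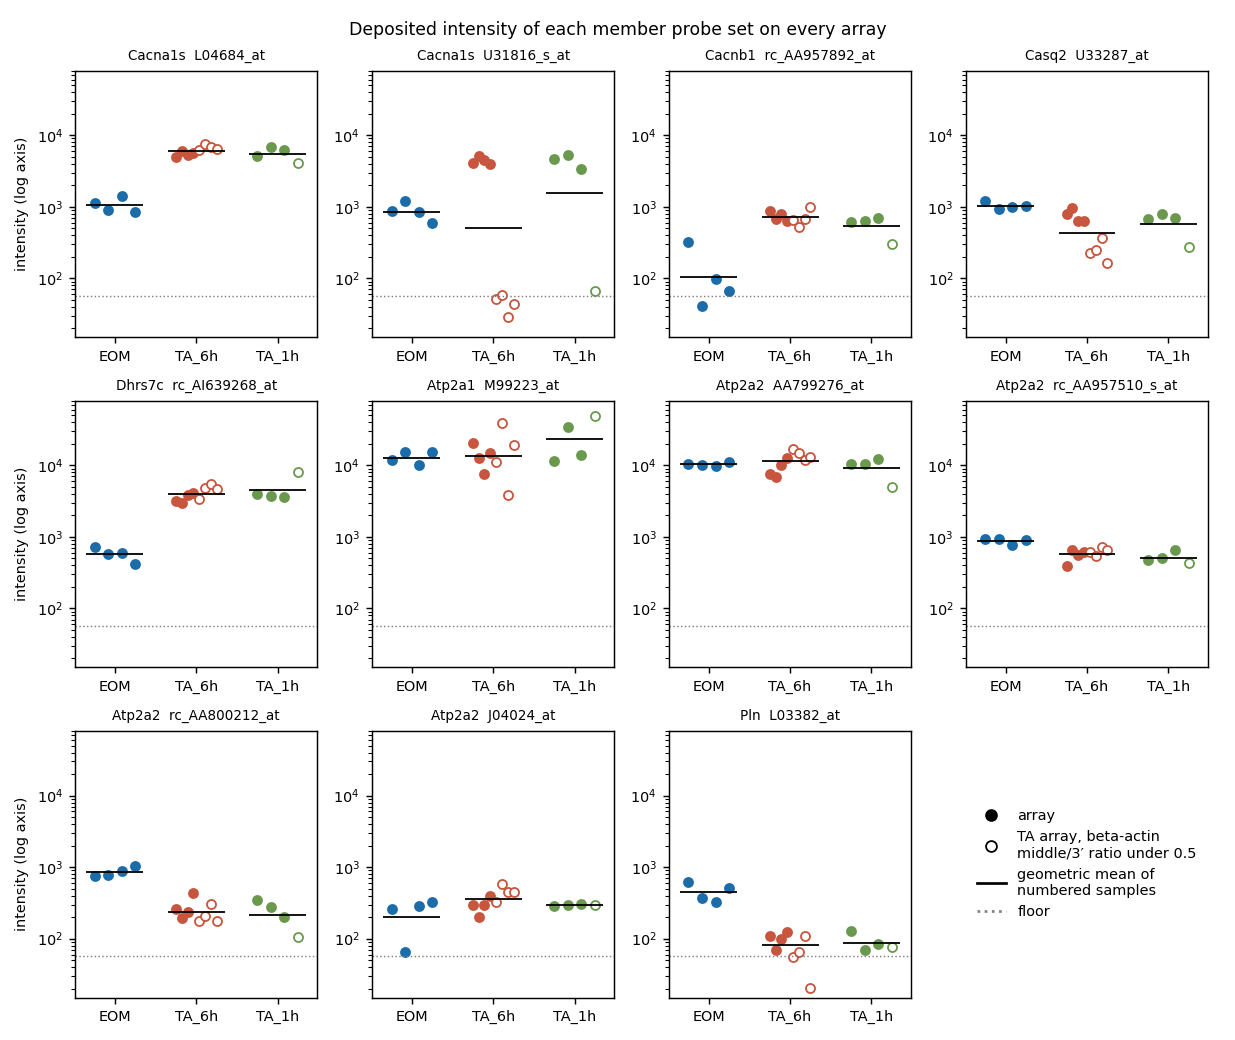
Deposited intensity (log axis) of each of the 11 probe sets on every array of EOM, TA_6h and TA_1h; open points are the 5 TA arrays with a beta-actin ratio under 0.5, lines are geometric means of numbered samples and the dotted line is the floor of 56.5. Cacna1s L04684_at and Dhrs7c lie lower on all EOM arrays and Pln higher, while Cacna1s U31816_s_at falls from 3378 or more to 65.6 or less on the open TA points.

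Cacnb1, the beta subunit that holds the channel in the membrane, had the probe set rc_AA957892_at. It read 326, 41, 98 and 66 in EOM, so that array 1 stood well above the other EOM arrays and array 2 lay under the floor. On TA_6h arrays its lowest, median and highest intensities were 521, 681 and 983, all above EOM. On TA_1h arrays it read 607, 638, 689 and 305, and the last of these fell below EOM array 1. EOM was 6.84-fold lower than TA_6h (log2 -2.77 ± 0.48, limma adjusted p = 0.00105) and 5.11-fold lower than TA_1h (log2 -2.35 ± 0.58, limma adjusted p = 0.0105). Since EOM array 2 was raised to the floor, both differences are smaller than the deposited values would give. EOM signals near the floor limit the size that can be read. The call against TA_1h was lost without TA_1h replicate 1 (log2 -2.13, limma adjusted p = 0.0859) and with only those 2 groups in the fit (limma adjusted p = 0.0565).

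No change of Cacnb1 relative to Cacna1s was detected. Within each sample the log2 value of Cacnb1 minus that of Cacna1s (L04684_at) averaged -3.32 ± 1.02 over the 4 EOM samples and -3.08 ± 0.32 over the 4 TA_6h samples (± SD). The difference of these differences was -0.24, with p = 0.771 in a two-sided exact permutation test over 70 arrangements (0.8 after adjustment over 6 pairs of genes). It was -0.75 without EOM replicate 1 and -3.54 with U31816_s_at standing for Cacna1s.

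Casq2, the cardiac and slow-fibre calsequestrin, had the probe set U33287_at. It read 1185, 938, 978 and 1021 in EOM. On TA_6h arrays the lowest, median and highest were 166, 497 and 973, and on TA_1h arrays it read 681, 797, 694 and 275. EOM lay above all TA_1h arrays and overlapped with TA_6h through array 1b alone. EOM was 2.42-fold higher than TA_6h (log2 1.27 ± 0.41, limma adjusted p = 0.0288), and the difference from TA_1h was not called (log2 0.86 ± 0.51, limma adjusted p = 0.215).

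Casq2 was the only other member whose TA values separated by the beta-actin ratio. It read 166 to 370 on the 5 arrays and 624 to 973 on the other 7 TA arrays, a mean log2 difference of -1.56, and 352 of the 7640 tested probe sets (4.61%) were as low or lower. All 5 arrays lay below all of the other 7 in 681 tested probe sets (8.91%). Without the 5 arrays the difference from TA_6h was 0.47 ± 0.17 and no longer called (limma adjusted p = 0.0630), and that from TA_1h was 0.52 ± 0.17 and called (limma adjusted p = 0.0426). With arrays as samples and a term for the 5 arrays, neither was called (0.50 ± 0.21, limma adjusted p = 0.0643, and 0.47 ± 0.22, limma adjusted p = 0.100). The call against TA_6h was lost in 9 of 24 alternatives, with limma adjusted p-values from 0.00597 to 0.0771, among them the fits without EOM replicate 1, 3 or 4 and without TA_6h replicate 3 or 4. The part of RNA quality in the Casq2 difference was not tested.

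Casq1, the calsequestrin of fast fibres and no member here, moved the other way. Its intensity in EOM was 12335 ± 679 (SD, n = 4), and TA_6h had 19868 ± 5014 (SD, n = 4; log2 -0.65 ± 0.19, limma adjusted p = 0.0201). The value of Casq2 minus Casq1 within a sample was 1.92 higher in EOM than in TA_6h, with p = 0.0286 in a two-sided exact permutation test, the smallest it can give, and 0.0429 after adjustment over the 6 pairs. The shift was 0.81 without the 5 arrays, and there the call of Casq1 was lost (log2 -0.35, limma adjusted p = 0.0718), as it was without EOM replicate 3 (log2 -0.62), without TA_6h replicate 3 (log2 -0.52) and with arrays scaled to a common median (log2 -0.54).

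**Figure D2:**
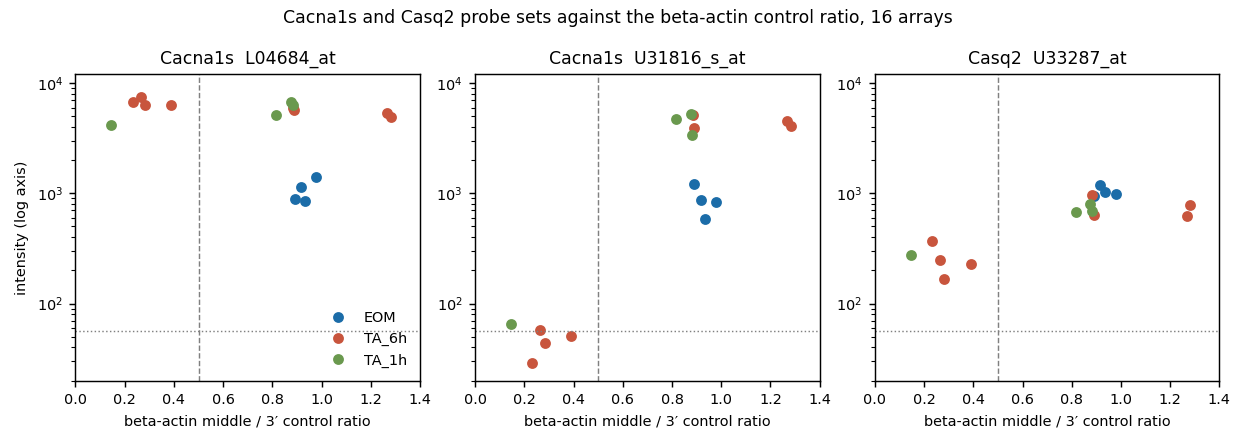
Intensity (log axis) of the 2 Cacna1s probe sets and of Casq2 against the beta-actin middle over 3′ ratio on the 16 arrays; the dashed line is a ratio of 0.5 and the dotted line the floor. The 5 TA arrays left of the dashed line read 29.1 to 65.6 for U31816_s_at and 166 to 370 for Casq2, while L04684_at there read 4128 to 7450.

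Dhrs7c, the dehydrogenase of the sarcoplasmic reticulum, had the probe set rc_AI639268_at, above the floor on all 16 arrays. It read 722, 578, 593 and 421 in EOM. On TA_6h arrays its lowest, median and highest were 2979, 3993 and 5424, and on TA_1h arrays it read 4040, 3762, 3595 and 8036. Every EOM array lay below every TA array. EOM had a mean of 579 ± 124 (SD, n = 4) and TA_6h of 4057 ± 812 (SD, n = 4). EOM was 6.99-fold lower than TA_6h (log2 -2.81 ± 0.22, limma adjusted p = 8.73e-06) and 8.06-fold lower than TA_1h (log2 -3.01 ± 0.27, limma adjusted p = 3.33e-05). It was 6.16-fold lower than TA_6h without the 5 arrays (log2 -2.62 ± 0.23). Dhrs7c minus Atp2a1 within a sample was -4.50 ± 0.55 over the 4 EOM samples and -1.75 ± 0.80 over the 4 TA_6h samples (± SD), a shift of -2.76 (two-sided exact permutation p = 0.0286, adjusted 0.0429). Dhrs7c was thus lower relative to the fast pump too.

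Atp2a1, the SERCA pump of fast fibres, had the probe set M99223_at. It read 11727, 15239, 10129 and 15250 in EOM. On TA_6h arrays the lowest, median and highest were 3802, 13938 and 39503, and on TA_1h arrays it read 11546, 35004, 14212 and 49157. The EOM arrays sat inside the range of TA_6h. The difference from TA_6h was -0.05 ± 0.29 (95% interval -0.70 to 0.60, limma adjusted p = 0.898), and that from TA_1h was -0.84 ± 0.36 (limma adjusted p = 0.0927). The latter was called with only those 2 groups in the fit (limma adjusted p = 0.0358), and it was -0.39 ± 0.27 without the 5 arrays. With this spread, a p that misses the threshold does not show that the pump's signal was the same.

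Atp2a1 spread between the numbered TA_6h samples, whose mean intensities ran from 11359 to 25408, and between TA arrays that share a number. On TA_6h arrays 4a and 4b it read 3802 and 19463, a ratio of 5.12. On TA_6h arrays 3a and 3b it read 11313 and 39503, and on TA_1h arrays 2a and 2b it read 14212 and 49157. The ratio of the higher to the lower array ran from 1.64 to 5.12 over the 6 pairs. Cacna1s L04684_at had ratios of 1.06 to 1.52 over the same pairs. In 5 of the 6 pairs the array with the letter b was the higher one for Atp2a1, the exception being TA_6h arrays 1 and 1b.

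Atp2a2, the pump of slow fibres and heart, had 4 probe sets, and they gave different answers. The brightest, AA799276_at, read 10334, 10263, 9698 and 11198 in EOM. On TA_6h arrays its lowest, median and highest were 6958, 12420 and 16898, and on TA_1h arrays it read 10628, 10583, 12322 and 4939. EOM lay within the range of both TA groups. The difference was -0.13 ± 0.23 from TA_6h (95% interval -0.66 to 0.39, limma adjusted p = 0.661) and 0.19 ± 0.29 from TA_1h (limma adjusted p = 0.645).

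The Atp2a2 probe set rc_AA800212_at was much dimmer and differed most. It read 759, 765, 891 and 1048 in EOM. On TA_6h arrays the lowest, median and highest were 174, 221 and 437, and on TA_1h arrays it read 349, 275, 200 and 105. All EOM arrays lay above all TA arrays. EOM was 3.60-fold higher than TA_6h (log2 1.85 ± 0.26, limma adjusted p = 0.000316) and 4.05-fold higher than TA_1h (log2 2.02 ± 0.32, limma adjusted p = 0.000908). The probe set rc_AA957510_s_at went the same way by less. It read 940, 930, 761 and 904 in EOM and 397, 612 and 717 as the lowest, median and highest in TA_6h, and 480, 511, 653 and 428 in TA_1h, without overlap. EOM was 1.50-fold higher than TA_6h (log2 0.59 ± 0.15, limma adjusted p = 0.0105) and 1.72-fold higher than TA_1h (log2 0.78 ± 0.19, limma adjusted p = 0.00872). Its call against TA_6h was lost after quantile normalization (log2 0.40, limma adjusted p = 0.0728), and its call against TA_1h was lost without TA_1h replicate 1 (limma adjusted p = 0.0599).

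The remaining Atp2a2 probe set, J04024_at, was not called and had a negative difference. It read 263, 65, 289 and 327 in EOM, with array 2 far under the others. On TA_6h arrays its lowest, median and highest were 200, 359 and 581, and on TA_1h arrays it read 290, 297, 303 and 291. Its difference from TA_6h was -0.83 ± 0.47 (95% interval -1.88 to 0.22, limma adjusted p = 0.174), and it was -0.29 without EOM replicate 2. Which of the 4 probe sets tracks the level of Atp2a2 was not tested, and levels are not compared between probe sets. No probe set of Atp2a2 separated the TA arrays by beta-actin ratio.

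The balance of the pumps followed the choice of probe set. With AA799276_at, Atp2a2 minus Atp2a1 within a sample was -0.32 ± 0.23 over the EOM samples and -0.23 ± 0.73 over the TA_6h samples (± SD, 4 each), a shift of -0.08 (two-sided exact permutation p = 0.8, adjusted 0.8). With rc_AA800212_at in its place the shift was 1.90, with rc_AA957510_s_at 0.64 and with J04024_at -0.78.

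**Figure D3:**
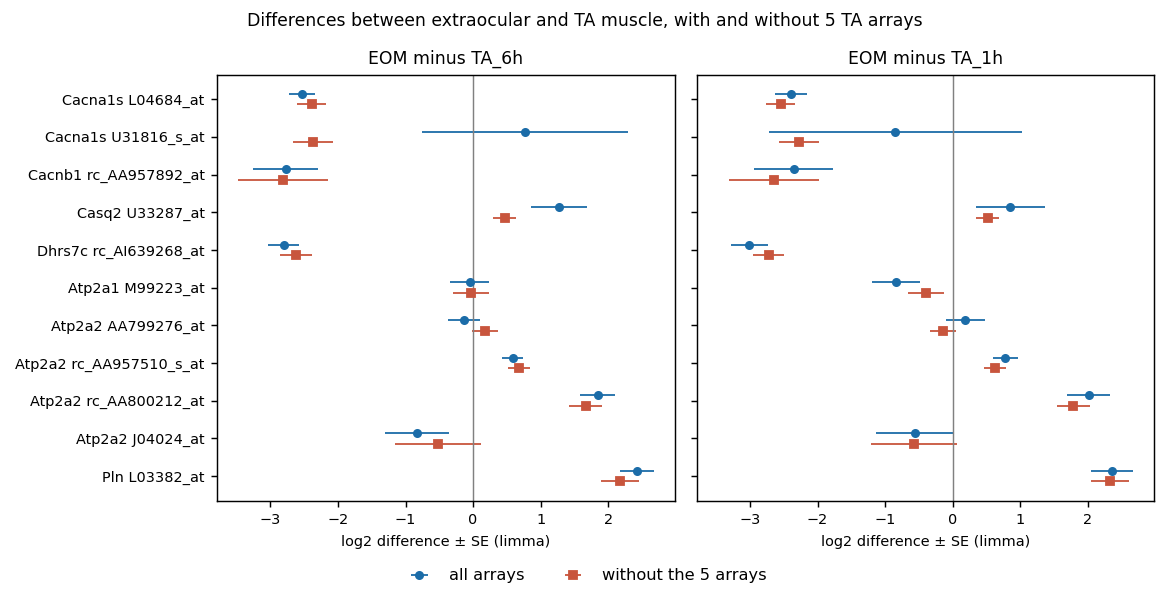
Log2 difference (limma, bars ± SE) of each of the 11 probe sets between EOM and TA_6h and between EOM and TA_1h, with all arrays (circles) and with 5 TA arrays left out for their beta-actin ratio (squares). Cacna1s U31816_s_at moves from 0.77 to -2.37 and Casq2 from 1.27 to 0.47 against TA_6h, while Dhrs7c stays between -2.81 and -2.62.

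Pln, the inhibitor of Atp2a2, had the probe set L03382_at and the largest called rise in EOM among the members. It read 626, 372, 329 and 507 in EOM. On TA_6h arrays its lowest, median and highest were 20.5, 85.1 and 122, and on TA_1h arrays it read 129, 68.5, 83.1 and 75.9. Every EOM array lay above every TA array. EOM was 5.38-fold higher than TA_6h (log2 2.43 ± 0.25, limma adjusted p = 4.35e-05) and 5.14-fold higher than TA_1h (log2 2.36 ± 0.31, limma adjusted p = 0.000276). Only 6 of the 8 TA_6h arrays were above the floor, so the difference from TA_6h is smaller than the deposited values would give. Signals this near the floor limit the size that can be read. It was 2.17 ± 0.28 without the 5 arrays.

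Phospholamban was also higher relative to the pumps. Pln minus Atp2a2 (AA799276_at) within a sample was -4.54 ± 0.38 over the EOM samples and -7.10 ± 0.72 over the TA_6h samples (± SD, 4 each), a shift of 2.56. Pln minus Atp2a1 shifted by 2.48. Each had p = 0.0286 in a two-sided exact permutation test and 0.0429 after adjustment over the 6 pairs. With rc_AA800212_at for Atp2a2 the first shift was 0.58 and not past the threshold (exact permutation p = 0.0571). With rc_AA957510_s_at it was 1.84 and with J04024_at 3.26.

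Markers of slow fibres, heart and smooth muscle, which also make some of these proteins, went both ways. The counts are of each gene's brightest probe set, beside 21.9% of all tested called higher and 25.3% lower. Of 6 slow-fibre markers tested, 1 was called higher in EOM than in TA_6h (Tpm3) and 3 lower (Myh7, Myl2 and Myl3), and their summed intensity was 32154 to 33608 on EOM arrays, 52334 to 76589 on TA_6h arrays and 55917 to 75842 on TA_1h arrays. Of 7 cardiac markers 2 were called higher (Nppb and Tnnt2) and 3 lower (Myh6, Nppa and Myl7), with sums of 18961 to 26888, 10851 to 37407 and 14251 to 26593. Nppa, the atrial natriuretic peptide, passed the floor on 0 of 4 EOM arrays. Of 6 smooth muscle markers, whose cells also make Pln, 2 were called higher (Myh11 and Cald1) and 2 lower (Tagln and Cnn1), with sums of 5713 to 7828, 3289 to 14071 and 4563 to 7489. Cnn1 passed it on 0 of 4 as well. Tpm3, Myl2, Myh6 and Tagln each had a further probe set called the other way. The smooth muscle marker Acta2 was not called by its brightest probe set, but its further sets were called higher (log2 1.129 and 3.497).

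The lists for other cell types differed among themselves. All 4 Schwann cell and myelin markers tested were called higher in EOM than in TA_6h by their brightest probe sets. Their sums were 8719 to 13017 on EOM arrays, 1709 to 2655 on TA_6h arrays and 1937 to 2826 on TA_1h arrays. A further probe set of Mag was called lower (log2 -0.689), and those of Pmp22 (log2 0.067) and S100b (log2 0.221) were not called. Of 4 macrophage markers 3 were called higher, with sums of 7907 to 11147, 1199.6 to 2294 and 1359 to 1928, and of 6 fibroblast markers 3 were, with sums of 57788 to 74940, 37035 to 69043 and 25305.5 to 37719. Aif1, among the macrophage markers, had further probe sets called higher (log2 3.075) and lower (log2 -1.584). Of 4 endothelial markers 1 was called higher (Vwf) and 1 lower (Thbd, whose other probe set was called higher), with sums of 1294 to 1904, 1808 to 2658 and 1651 to 2868. Of 5 adipocyte markers 2 were called higher (Cfd and Fabp4) and 2 lower (Lep and Lipe), with sums of 6324 to 7748, 7747 to 8789.5 and 7846 to 8229. Of 9 fast-fibre markers none was called higher and 6 were called lower. Their part in the values of the 7 genes was not tested.

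Between TA_6h and TA_1h none of the 11 probe sets was called by limma, and 0% of all tested were called in either direction. None of the 11 had an unadjusted p under 0.05, against 424 of all 7640. The largest differences were -1.62 ± 1.87 for Cacna1s U31816_s_at and -0.79 ± 0.36 for Atp2a1 (limma adjusted p = 0.885), with the 1-hour group on 2 samples. Pln differed by -0.06 ± 0.31, Dhrs7c by -0.20 ± 0.27 and Cacna1s L04684_at by 0.14 ± 0.24. These values do not show that the TA groups were alike.

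Other genes of calcium handling were taken from 4 lists of 58 genes in all, of which 39 had a tested probe set, each gene represented by its brightest. Between EOM and TA_6h, 4 of the 39 were called higher, against 21.9% of all tested, and 14 lower, against 25.3%, with a median difference of -0.31 beside -0.11 over all tested. Against TA_1h 3 were called higher, against 17.7% of all, and 12 lower, against 19.5%, and between the TA groups limma called none. The ryanodine receptor gene Ryr1 is not covered by a probe set of its own symbol.

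Of 16 genes of the release complex, 6 were called lower and 2 higher. Asph, whose locus encodes junctin, had an EOM mean of 1662 ± 155 and a TA_6h mean of 8130 ± 487 (SD, n = 4 each; log2 -2.29 ± 0.14). Jph2, a junctophilin that ties tubule to reticulum, was at 2446 ± 214 and 11630 ± 3198 (log2 -2.21 ± 0.21). Cacna2d1, the alpha-2/delta subunit of the same channel as Cacna1s, was at 3539 ± 195 and 15252 ± 3961 (log2 -2.07 ± 0.21). Beside these differences stand -2.53 for Cacna1s (L04684_at) and -2.77 for Cacnb1. The scaffold Homer2 was lower through all 3 of its tested probe sets, by -3.36 ± 0.37 on the log2 scale through the brightest, where 1 of 4 EOM arrays passed the floor, and by -1.57 ± 0.40 and -1.81 ± 0.51 through the others. Ryr2, the cardiac ryanodine receptor, was lower (log2 -1.11 ± 0.20), with an EOM mean of 71.9 and 3 of 4 EOM arrays above the floor. Its call was lost after quantile normalization (log2 -0.50, limma adjusted p = 0.0975) and with the floor at the 40th percentile (log2 -0.30, limma adjusted p = 0.102). The beta subunit Cacnb2 was higher (log2 1.05 ± 0.34) and lost its call in 8 alternatives, among them those without EOM replicate 1 or 2, without TA_6h replicate 1 or 2 and with the sample number as a block (limma adjusted p = 0.0599). Outside the rule for naming, Cacnb4 was lower (log2 -0.76), and Cacna1c, the cardiac pore subunit, was higher through its brightest probe set (log2 0.89) and lower through another (log2 -0.81). Homer1 and Itpr1 were not called by their brightest probe sets. Homer1 had dimmer sets called lower (log2 -1.31, -1.30 and -0.70) and others not called, and a dimmer set of Itpr1 was called higher (log2 1.23).

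In the store, 1 of 5 genes was called higher and 1 lower by their brightest probe sets. Rcn2, a calcium-binding reticulocalbin, was higher in EOM (log2 1.82 ± 0.17), and Casq1 was lower, as given above. Calr was not called by its brightest probe set, but a dimmer set was called higher (log2 1.70, limma adjusted p = 0.000273). Of 9 genes of reuptake and extrusion, the pump Atp2a3 was higher (log2 0.75 ± 0.20), though its call was lost after quantile normalization (log2 0.51, limma adjusted p = 0.0695). Lower were the sodium-calcium exchangers Slc8a1 (log2 -1.62 ± 0.26), Slc8a2 (log2 -1.13 ± 0.28) and Slc8a3 (log2 -1.29 ± 0.43), and the secretory pathway pump Atp2c1 (log2 -0.99 ± 0.22). The call of Slc8a3 was lost without a filter (limma adjusted p = 0.0603), without EOM replicate 3 (log2 -0.85, limma adjusted p = 0.0502) and without TA_6h replicate 1 or 2 (log2 -1.14 in each). Dimmer probe sets of Atp2b1 (log2 -0.75), Atp2b3 (log2 -1.47) and Atp2b4 (log2 -1.16) were called lower, while the brightest of each was not called. Of 9 kinases and phosphatases, 3 were lower and none higher by their brightest probe sets, namely the calcineurin subunit Ppp3ca (log2 -1.37 ± 0.19) and the CaM kinases Camk2b (log2 -0.93 ± 0.20) and Camk2g (log2 -0.93 ± 0.26). A dimmer probe set of the kinase gene Camk2d was called higher (log2 1.23, limma adjusted p = 0.00290) and one of Prkaca lower (log2 -1.45, limma adjusted p = 0.000859). Without the 5 arrays Slc8a2 (log2 -0.86, limma adjusted p = 0.0676) and Camk2g (log2 -0.54, limma adjusted p = 0.114) were not called. Over all 4 lists, 5 of the 39 genes were then called higher and 17 lower. Of all 7640 probe sets tested in that fit, 1585 were called higher and 1919 lower against TA_6h.

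**Figure D4:**
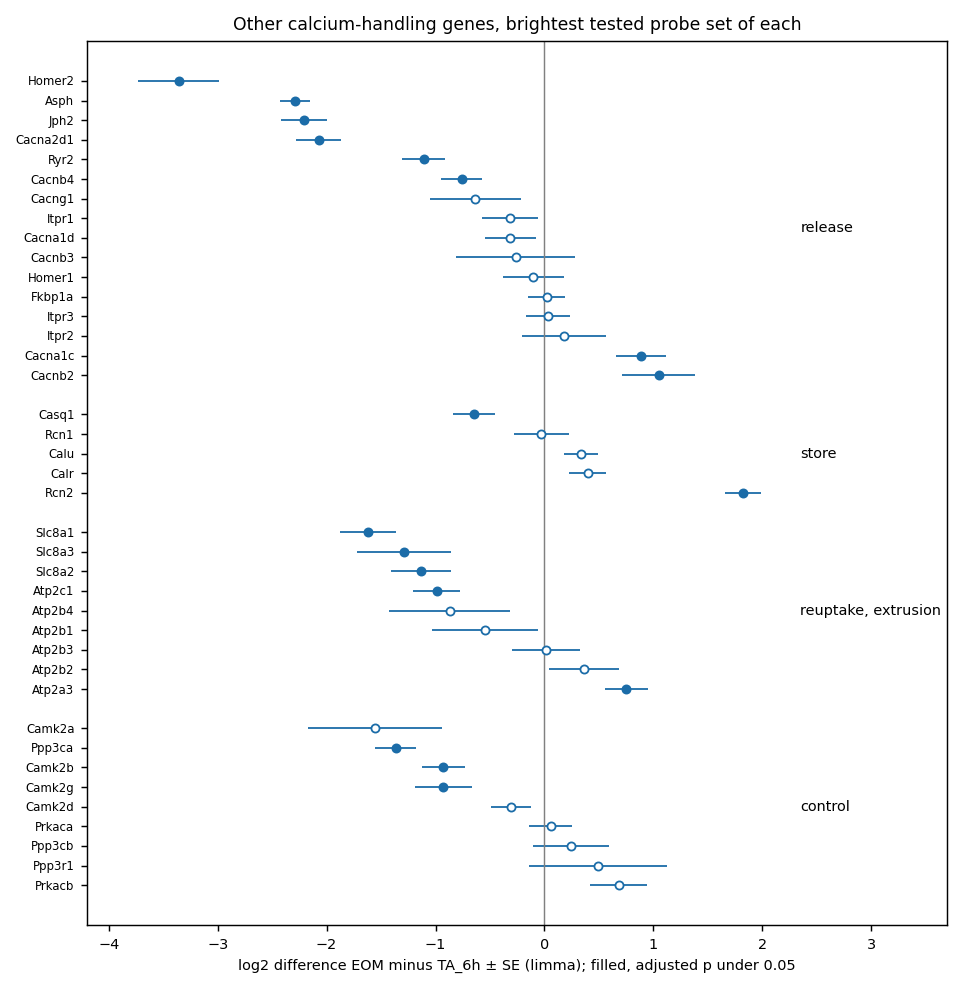
Log2 difference (limma, bars ± SE) between EOM and TA_6h of the brightest tested probe set of each of the 39 other calcium-handling genes, in 4 lists; filled points have an adjusted p under 0.05. The release complex runs from -3.36 for Homer2 to 1.05 for Cacnb2, and 14 of the 18 filled points lie on the lower side.

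The genes whose log2 values followed each member most closely over the 10 numbered samples are given as a description, since EOM and TA differ in many genes and the samples share their arrays. The pattern of Cacna1s (L04684_at) was most like that of Mybpc2, the fast myosin-binding protein C (Pearson r = 0.995), then Zc3h4 (0.987) and H19 (0.986). Dhrs7c was most like Bin1 (0.991), which shapes the tubular membrane. Pln was most like Nat1 (0.994) and Apod (0.987), and Casq2 was most like the pointed-end cap Tmod1 (0.981). Cacnb1 was most like Mc3r (0.978). Atp2a1 was most like the fast troponin Tnnt3 (0.975), which was also first over the 6 TA samples alone (0.983). Tnnt3 shares with Atp2a1 a difference from TA_6h near 0 (log2 0.01 ± 0.19). For Atp2a2 (AA799276_at) the closest was Itgb7, at 0.835, lower than the first match of any other member. Over the 6 TA samples alone, the first match of every member but Atp2a1 was a different gene. Cacna1s was then most like Colq (0.985), Dhrs7c like Ube2a (0.992) and Pln like Ghrh (0.984). Casq2 was most like Pdcd10 (0.997), Cacnb1 like Ndst1 (0.989) and Atp2a2 like Slc25a17 (0.985).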

How the data were processed

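Microarray expression of 16 rat muscle arrays was read from the deposited table of intensities, 1 per probe set and array, on a linear scale. The authors' step from probes to probe sets is not stated in any source used here. The trimmed mean of each array lay between 801.1 and 801.8, so the deposited scaling was kept. A floor at the 25th percentile of all intensities (56.5) replaced lower values before taking log2. Leaving out control probe sets, the 7640 that exceeded it on 4 or more arrays were fitted with limma 3.58.1 in R 4.3.3, all 3 groups in a single fit, with Benjamini-Hochberg adjustment. TA arrays of a number were averaged, joining the unlettered TA_6h arrays 1 and 2 with 1b and 2b, which is an inference. The labels do not say that numbers mark animals, so p-values measure a spread between samples that may be technical only. The number of arrays limits the precision. The deviations of EOM and TA_6h samples of a number correlated by 0.0206 to 0.105, so the numbers were not taken to pair the samples. Symbols come from GEO's platform annotation. All 11 probe sets match a current RefSeq gene. The fit was tested on simulated data.

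All probe sets of the 7 genes were named. From the other lists the rule took the called genes against TA_6h with the largest differences, up to 6 a list, and for likeness the probe sets of other genes, above the floor on all 16 arrays, with the highest correlation. The members and lists were chosen with earlier results of these data known. Alternatives covered normalization, floor, filter, replicates, fit and probe set, and those on 5 TA arrays whose beta-actin ratio was under 0.5 were added after seeing the data. Figures were drawn with matplotlib 3.10.9.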

Additional observations from a re-analysis of the deposited data

Results flagged for a closer look

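Of 22 sets of 4 numbered samples tested (11 probe sets in EOM and in TA_6h), 1 held a sample far from the others, where chance would give about 1 in 20. Atp2a2 J04024_at in EOM replicate 2 had a log2 value of 6.03, and the nearest other EOM sample had 8.04, a gap of 0.865 of the whole range of the group. Its deposited intensity was 65, just above the floor. The other 3 Atp2a2 probe sets on that array read 10263, 765 and 930, each within the range of the other EOM arrays.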

How the results depend on the processing

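Over 24 alternatives, the calls of the 11 probe sets between EOM and TA_6h stayed as they were 249 times and were lost 10 times. A call was gained in the reverse direction 2 times. Differences that were not called could change sign within the 249, as Atp2a2 AA799276_at did (-0.34 to 0.18). Against TA_1h the calls stayed 253 times, were lost 3 times and gained 5 times, and between the TA groups no call was gained in 261. Uncalled differences changed sign here too, as Cacna1s U31816_s_at did against TA_1h (-0.85, and 0.86 with number as a replicate block). The 2 reversed calls against TA_6h were Cacna1s U31816_s_at at -2.37 without the 5 arrays with low beta-actin ratios and -2.34 given a term for them, against 0.77. Cacna1s L04684_at, Dhrs7c, Pln, Cacnb1 and Atp2a2 rc_AA800212_at were called against TA_6h in every alternative run, with log2 differences of -2.73 to -2.39, -2.93 to -2.52, 1.72 to 2.61, -3.32 to -2.09 and 1.53 to 1.99. U31816_s_at, Cacnb1 and Pln could not be fitted under the requirement of all 16 arrays above the floor. With number as a replicate block the members called were 4 higher and 3 lower against TA_6h and 3 and 3 against TA_1h. No call of a member changed there. Of all 7640 probe sets tested in that fit, 1642 were called higher and 1865 lower against TA_6h. The same counts against TA_1h were 1244 higher and 1296 lower.

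Counts over all probe sets moved more. Probe sets called lower in EOM than in TA_6h were 791, beside 1136 higher, among those above the floor on all 16 arrays, so that 59% of calls were higher against 46.3% of 1671 and 1935 otherwise. Of calls against TA_6h 52.4% were higher with the floor at the 40th percentile. Those lower than TA_1h were 589, beside 923 higher, under the requirement of all arrays, 2253 when the 10th percentile was the floor and 896 to 1592 with a numbered sample left out, when those higher were 880 to 1453. Between the TA groups, 2 were higher and 6 lower without a filter, and 1 higher where every array had to exceed the floor, with each array as a sample, or with the unlettered arrays as samples. Without the 5 arrays 33 were higher and 12 lower, and with the term 47 and 10. Leaving out a sample gave 0 to 1 higher. Pathway genes higher than TA_1h were 5 without a filter and 5 with only those 2 groups, where 1323 and 1529 of all probe sets were. They were 1 to 4 with a sample left out, when pathway genes lower were 7 to 13.

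Of the relative changes, Atp2a2 minus Atp2a1 was -0.78, 1.90 and 0.64 with the other Atp2a2 probe sets (J04024_at, rc_AA800212_at, rc_AA957510_s_at), and Pln minus Atp2a2 was 3.26, 0.58 and 1.84. A floor at the 40th percentile gave 1.86 for Pln minus Atp2a2 and 1.77 for Pln minus Atp2a1. Casq2 minus Casq1 was 0.81 without the 5 arrays, and Cacnb1 minus Cacna1s was -3.54 with U31816_s_at. For these the cause was not tested.

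The median difference of all probe sets from TA_6h was -0.11. It was 0.02 with quantile normalization (50.8% of calls higher), and with arrays set to a common median it was -0.02 (52.2%). Signals near the floor (Pln in TA, Cacnb1 in EOM) limit the size that can be read there. Fits without the 5 arrays keep 2 TA_6h samples, so a call lost there can come with fewer samples.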
